A study of Mus musculus with 6 samples.

Results

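Cadherins, catenins and Epcam hold epithelial cells together, and 7 of their genes were followed here across 2 gene silencings in mouse HACA cells. They are the cadherins Cdh1, Cdh2, Cdh3 and Cdh11, the catenins Ctnnb1 and Ctnnd1, and Epcam, which the array annotation still lists under its older name Tacstd1. Their probes were picked by gene name, and the 7 genes themselves were chosen with earlier results of these data known. Each had 1 probe, so they made up 7 of 20868 probes and 7 of 19594 gene names. Of these, 6 entered the tests among 19752 probes. Cdh11 did not, since its probe was well above background in neither channel of any array.

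RNA from cells with a short hairpin against Loxl2 (shLoxl2) was hybridised on 4 Agilent 2-colour arrays. RNA from cells with a hairpin against Snail (shSnail) was hybridised on 2 such arrays. Cells with a hairpin against GFP (shGFP) were the control, and their RNA took the second channel on each array. All 3 groups are HACA cells with a hairpin, and the labels give no strain, origin or time after silencing and do not say whether a line is 1 clone. The shLoxl2 RNA of each of 2 replicate numbers was run once in Cy5 (red) and once in Cy3 (green), and these 2 arrays were averaged with the sign turned. Both shSnail samples were run in Cy5 alone, which leaves n = 2 per silencing. Whether a group's samples were grown separately is not stated, and p-values measure only the spread between samples of a group, which may be technical. The tests against shGFP pooled that spread over both silencings, so the SE and p of each also rest on the other's arrays. The shGFP RNA counts as 1 control sample, so tests against it leave out the control's own spread. With so few arrays the precision is limited.

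Classical cadherins are transmembrane proteins that bind their like on the neighbouring cell. Their cytoplasmic tails hold beta-catenin (Ctnnb1), which links them to actin through alpha-catenin, and p120-catenin (Ctnnd1), which keeps them at the membrane. Beta-catenin that is not held at junctions can enter the nucleus and act with the TCF and LEF factors in Wnt signalling. Epcam is an unrelated adhesion protein of simple epithelia and carcinomas. Snail, the repressor encoded by Snai1, is best known for binding E-boxes with the core CAGGTG, which reads CACCTG on the other strand, in the Cdh1 promoter and shutting that gene down. Loxl2 is a lysyl oxidase-like enzyme that has been reported to work with Snail in this repression. The comparisons ask what each silencing does to these adhesion genes, and how the 2 silencings differ.

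Promoter windows of RefSeq (GRCm38.p6), from 250 bases before to 50 bases after a start site, were at hand for 3 of the 7 genes, namely Epcam, Ctnnb1 and Ctnnd1. The Epcam window is shown because it alone of the 3 genes' windows holds the core that Snail is known to bind. It lies on the plus strand at chr17:87635729-87636028, and the capitals mark CACCTG and CAGGTG, searched on both strands, which cannot overlap each other.
Epcam: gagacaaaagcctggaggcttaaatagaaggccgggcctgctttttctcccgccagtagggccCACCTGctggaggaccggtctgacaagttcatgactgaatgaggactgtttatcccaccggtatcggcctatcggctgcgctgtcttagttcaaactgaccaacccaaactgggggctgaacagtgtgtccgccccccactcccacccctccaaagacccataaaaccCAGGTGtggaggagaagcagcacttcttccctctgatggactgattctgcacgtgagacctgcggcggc
Counted from the start site, the window holds CACCTG once at position -187 and CAGGTG once at position -19. Of 32851 such windows 20.2% held at least 1 of these cores and 2.88% held 2 or more. The 2 windows of Ctnnb1 and the 2 of Ctnnd1 held 0. The looser E-box CANNTG occurred 3 times in the Epcam window, once in 1 Ctnnd1 window and 0 times in the Ctnnb1 windows, and 72.3% of all windows held it. A match of letters is a description and says nothing about binding in these cells.

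Several facts of the arrays bear on every value below. The cells expressed keratinocyte markers: 10 of 10 were well above background in Cy5 on all 6 arrays, at a median percentile of 98.2 of Cy5 brightness. The same held for 4 of 6 leukocyte markers (median percentile 42.8), 3 of 5 endothelial markers (14.6), 6 of 7 fibroblast markers (36) and 3 of 6 muscle and nerve markers (17.1). Among these, Ptprc (leukocytes) and Tek (endothelium) were well above background in Cy5 on 0 arrays. The medians leave out Ptprc, Tek, Pecam1 and Des, whose probes were not tested. Single markers overlapped between the lists. Krt8 of the keratinocyte list was at percentile 32.7 and the rest of that list at 96.7 or above. The other lists reached up to 77.5 (Cd3e, leukocytes), with Cd68 (leukocytes) at 66.9 and Pdgfra (fibroblasts) at 59.3. Of all probe spots 85.4% to 92.4% were well above background in Cy5 on any 1 array. The marker counts therefore say little without the percentiles. The probes of the silenced genes do not check the labels. The Loxl2 probe was well above background in only 2 of 4 shLoxl2 channels and 1 of 4 shGFP channels beside them. Its log2 ratio turned with the dye, at -1.3 and -0.68 with shLoxl2 RNA in Cy5 and 1.38 and 1.04 with it in Cy3. The averaged log2 fold change of 0.11 in shLoxl2 cells (limma adjusted p = 0.59) thus measures neither silencing nor its lack. The Snai1 probe gave no fold in shSnail cells, since neither channel of their arrays was well above background there. Directions therefore rest on the labels. In Cy3 the negative control spots had medians of 676 to 859 on the shLoxl2 arrays and 292 to 354 on the shSnail arrays, against 78 to 87.5 in Cy5, so dim genes had little room to show in Cy3. A ratio also carries a dye effect, the part that does not turn when the dyes are swapped, whose SD over probes was 0.463 in log2 units. It cancels in the averaged shLoxl2 pairs, and for shSnail it was estimated from those pairs and removed. It was large: with the sign turned, both orientations of a shLoxl2 sample correlated over probes at 0.0225 in replicate 1 and -0.0295 in replicate 2. The shSnail ratios followed it at a slope of only 0.453, so its removal in full is one choice among those given below. All shLoxl2 arrays were scanned on 1 day with 1 extraction protocol and both shSnail arrays on another with another, so these cannot be told apart from the group wherever shSnail is set against shLoxl2. The same holds where the Cy5 channel of shSnail is set against that of shGFP, which was measured only on the dye-swapped shLoxl2 arrays and counts their 2 hybridisations as samples. The p-values of shSnail against shGFP from the ratios also rest on how far the dye effect varied between the shLoxl2 pairs.

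Cdh1, which encodes E-cadherin, the main cadherin of epithelia, rose in shLoxl2 cells. Its normalized log2 ratio of shLoxl2 over shGFP was 1.35 and 0.92 with shLoxl2 RNA in Cy5 and 0.95 and 1.09 with it in Cy3. On the shSnail arrays the log2 ratio of shSnail over shGFP was -0.19 and -0.01. All 4 shLoxl2 arrays lay above both shSnail arrays, in either orientation of the dyes. More cells with a transcript and more of it per cell cannot be told apart in bulk RNA. The fitted log2 fold change of shLoxl2 against shGFP was 1.08 (SE 0.12, n = 2, limma adjusted p = 0.00488), taken against a shGFP level that was mostly not well above background. For shSnail against shGFP it was -0.16 (SE 0.16, n = 2, limma adjusted p = 0.533), which did not pass.

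The size of the Cdh1 rise depends on the channel. The probe (chr8:109559041-109559100 in mm8, the build of the files) had Cy5 spot intensities of 511 and 531 with shLoxl2 RNA, against 105 and 107 with shGFP RNA on the dye-swapped arrays. Those shGFP spots lay barely above the negative controls, and Cdh1 was well above background in 4 of 4 shLoxl2 channels but in 1 of the 4 shGFP channels beside them. In Cy3 the same RNAs gave 907 and 857 for shLoxl2 and 689 and 978 for shGFP, which overlap. Taken from the Cy5 channel alone, an alternative chosen after seeing the data, the log2 difference was 2.56 (SE 0.17, limma adjusted p = 0.0039), or 5.9-fold. The log ratios of the scanner software gave 2.8, and no background subtraction gave 0.34, so the direction held while the size spanned these values. In shSnail cells the Cy5 spots had intensities of 94 and 116, and Cdh1 was well above background in 1 of 2 shSnail channels and 0 of 2 shGFP channels beside them. Spot intensities are not normalized between arrays. Normalized Cy5 log2 values were 6.26 and 6.61 in shSnail cells, 6.16 and 6.17 in shGFP cells and 8.7 and 8.76 in shLoxl2 cells. The Cy5 channel alone placed Cdh1 at 0.27 above shGFP in shSnail cells (SE 0.17, limma adjusted p = 0.272), where the ratios placed it at -0.16. Neither passed, and with shGFP this close to the negative controls a fall in shSnail cells could not have been measured, while a rise like that of shLoxl2 could.

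**Figure D1:**
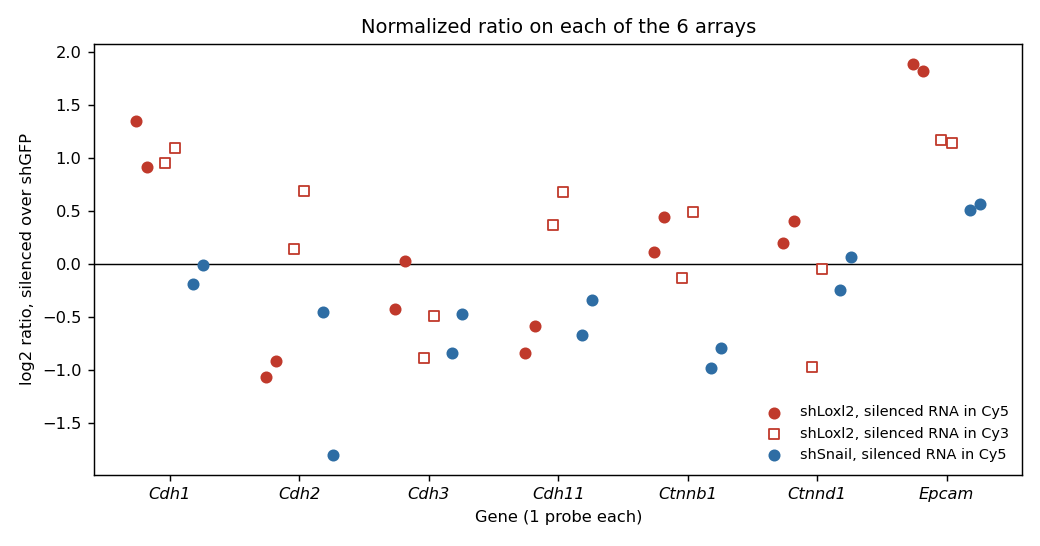
Normalized log2 ratio of silenced over shGFP RNA (y axis) for the 7 genes (x axis) on each of the 6 arrays. Red filled circles are shLoxl2 arrays with the silenced RNA in Cy5, red open squares shLoxl2 arrays with it in Cy3, and blue circles shSnail arrays. Cdh1 and Epcam lie above 0 on all 4 shLoxl2 arrays, whereas Cdh2, Cdh11 and Ctnnd1 change side with the dye.

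Cdh3, which encodes P-cadherin, the cadherin of basal epidermal cells, fell in shSnail cells. Its log2 ratio was -0.84 and -0.47 on the shSnail arrays. On the shLoxl2 arrays it was -0.42 and 0.03 with shLoxl2 RNA in Cy5 and -0.88 and -0.49 with it in Cy3. The ranges of the 2 silencings overlap. After removal of a dye effect of 0.25, the fitted change in shSnail against shGFP was -0.9 in log2 (SE 0.2, n = 2, limma adjusted p = 0.0231). For shLoxl2 against shGFP the log2 fold change was -0.44 (SE 0.16, n = 2, limma adjusted p = 0.134). The Cdh3 probe (chr8:109444722-109444782 in mm8) was well above background in both channels on all 6 arrays. Its call was lost by the scanner software's log ratios (-1.0, limma adjusted p = 0.0541), without shSnail replicate 1 (-0.71, limma adjusted p = 0.132), without either shLoxl2 pair in the dye estimate (adjusted p of 0.0516 and 0.0547), and in the Cy5 channel alone (-0.72, limma adjusted p = 0.0672). Its direction held in all 14 alternatives run, from -1.2 to -0.64. Normalized Cy5 intensities were 9.22 and 8.98 in shSnail cells and 9.26 and 9.17 in shLoxl2 cells, against 10.12 and 9.53 in shGFP cells on the log2 scale. Both silencings thus lay below shGFP in that channel, and neither passed there (shLoxl2 against shGFP -0.61, limma adjusted p = 0.152).

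Cdh2, which encodes N-cadherin, the mesenchymal and neural cadherin gained in many epithelial-mesenchymal transitions, passed in neither silencing. Its log2 ratio was -1.06 and -0.91 on the shLoxl2 arrays with shLoxl2 RNA in Cy5, but 0.14 and 0.69 with it in Cy3. The sign thus turned with the dye, and the dye effect of this probe on chromosome 18 was -0.7, the largest in size of the 7 genes. The 2 shSnail arrays gave -0.45 and -1.8, further apart than for any other of the 7. Averaged over dyes, shLoxl2 against shGFP was at -0.28 (SE 0.31, n = 2, limma adjusted p = 0.592). With the shLoxl2 arrays alone setting the spread, its limma adjusted p was 0.365. The shSnail arrays have no dye swap, and with the dye effect of the shLoxl2 pairs removed shSnail against shGFP was at -0.42 (SE 0.41, n = 2, limma adjusted p = 0.505). In shSnail cells the value depended on how the dye was treated. Without dye correction it was -1.12 (limma adjusted p = 0.0392), without shSnail replicate 1 it was -1.1 (limma adjusted p = 0.0468), and without shSnail replicate 2 it turned to 0.25 (limma adjusted p = 0.54). In the Cy5 channel alone, where no dye effect enters, normalized log2 intensities were 6.82 and 6.81 in shSnail cells, against 8.81 and 8.15 in shGFP cells. Those groups do not overlap, and the log2 difference was -1.67 (SE 0.24, limma adjusted p = 0.00884). The shLoxl2 values of 8.29 and 8.49 in Cy5 lay between the 2 shGFP values.

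Cdh11, a cadherin of mesenchymal and bone-forming cells also called OB-cadherin, was well above background in neither channel of any of the 6 arrays. Its Cy5 spots had intensities of 85.7 and 85.3 with shLoxl2 RNA, 80.5 and 87.5 with shSnail RNA, and 86.3 and 90.8 with shGFP RNA. They lay at the level of the negative controls in every group, and no fold was measured. Its ratios of -0.84 and -0.58 in Cy5 and 0.37 and 0.68 in Cy3 on the shLoxl2 arrays turn with the dye, as those of Cdh2 do.

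Ctnnb1, beta-catenin, was the brightest of the 7 probes and fell in shSnail cells. Its log2 ratio was -0.98 and -0.79 on the shSnail arrays. On the shLoxl2 arrays it was 0.11 and 0.44 with shLoxl2 RNA in Cy5 and -0.13 and 0.49 with it in Cy3. Both shSnail arrays lay below all 4 shLoxl2 arrays. The dye effect was only 0.05, and the fitted log2 change in shSnail against shGFP came to -0.93 (SE 0.19, n = 2, limma adjusted p = 0.0188). For shLoxl2 the log2 change was 0.23 (SE 0.15, n = 2, limma adjusted p = 0.38), and it was -0.01 without shLoxl2 replicate 2. The probe (chr9:120808358-120808417 in mm8) was well above background in both channels on all 6 arrays. In shSnail cells its direction held in all 14 alternatives, from -1.08 to -0.83, and 9 of them kept the call. The call was lost by the scanner software's log ratios (-0.9, limma adjusted p = 0.0561) and without shSnail replicate 1 (-0.83, limma adjusted p = 0.111) or replicate 2 (-1.03, limma adjusted p = 0.0603). In Cy5 alone the 2 shGFP intensities, 13.8 and 12.84 on the log2 scale, stood further apart than those of shSnail cells, 12.18 and 12.3, and the difference of -1.08 had a limma adjusted p of 0.0551.

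Ctnnd1, p120-catenin, passed in neither silencing. Its log2 ratio was -0.24 and 0.07 on the shSnail arrays. On the shLoxl2 arrays it was 0.2 and 0.41 with shLoxl2 RNA in Cy5 and -0.97 and -0.05 with it in Cy3. The sign turned with the dye here too, and the dye effect was 0.41. The probe (chr2:84401622-84401652 in mm8) was dim in Cy3 and well above background in 3 of 4 shLoxl2 channels and 2 of 4 shGFP channels beside them. The log2 fold change was -0.1 for shLoxl2 against shGFP (SE 0.17, n = 2, limma adjusted p = 0.73) and -0.49 for shSnail against shGFP (SE 0.24, n = 2, limma adjusted p = 0.198). The shLoxl2 value changed sign to 0.18 without replicate 1 and to 0.36 in the log ratios of the scanner software. The shSnail value was -0.08 without dye correction and -1.9 in the scanner software's log ratios (limma adjusted p = 0.0627), and it ran from -2.15 to -0.08 over 13 alternatives with no call.

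**Figure D2:**
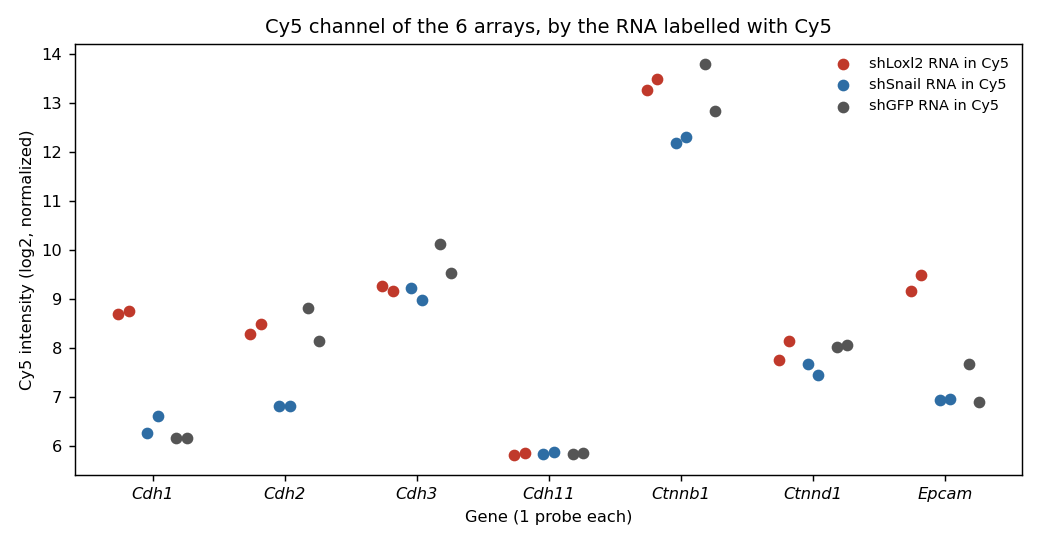
Normalized Cy5 intensity (y axis, log2) of the 7 genes (x axis) by the RNA that carried Cy5: red points are the 2 shLoxl2 samples, blue points the 2 shSnail samples and grey points shGFP RNA on the 2 dye-swapped arrays. Cdh1 and Epcam stand highest in shLoxl2 cells, Cdh2 and Ctnnb1 lowest in shSnail cells, and Cdh11 is level in all 3.

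Epcam rose in shLoxl2 cells, by more than Cdh1 in the averaged ratios and by less in the Cy5 channel alone. Its log2 ratio was 1.89 and 1.82 with shLoxl2 RNA in Cy5 and 1.17 and 1.14 with it in Cy3. On the shSnail arrays it was 0.51 and 0.57. All 4 shLoxl2 arrays lay above both shSnail arrays, and the replicates within an orientation differed by less than the orientations did. The log2 fold change of shLoxl2 against shGFP was 1.51 (SE 0.11, n = 2, limma adjusted p = 0.00167), a 2.84-fold higher level. The probe (chr17:87558855-87558914 in mm8) was well above background in 4 of 4 shLoxl2 channels and 2 of 4 shGFP channels beside them. Its Cy5 spots had intensities of 750 and 957 with shLoxl2 RNA, against 290 and 163 with shGFP RNA. In the Cy5 channel alone the rise was 4.13-fold (log2 difference 2.05, SE 0.28, limma adjusted p = 0.0152). The scanner software's log ratios gave 3.0, and no background subtraction gave 0.6.

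In shSnail cells the Epcam value turned on the treatment of the dye. With the dye effect of 0.35 removed it was 0.19 (SE 0.13, n = 2, limma adjusted p = 0.351). With the dye effect scaled by 0.453, the slope of the shSnail ratios on it, it was 0.38 (limma adjusted p = 0.037), and without dye correction 0.54 (limma adjusted p = 0.0139). Epcam was well above background in 2 of 2 shSnail channels and 0 of 2 shGFP channels on those arrays, and the uncorrected levels gave at least 1.37-fold higher, a bound open to dye bias. In Cy5 alone the shSnail samples had log2 intensities of 6.94 and 6.95, against 7.67 and 6.89 in shGFP. There the difference was -0.34 (SE 0.28, limma adjusted p = 0.407), of the opposite sign. No direction for Epcam in shSnail cells held across these settings.

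**Figure D3:**
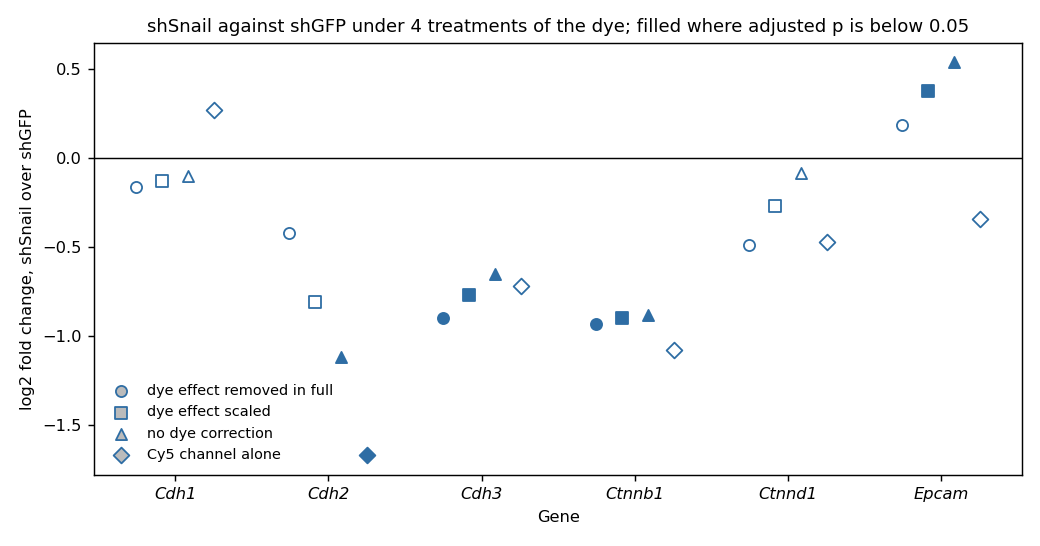
log2 fold change of shSnail over shGFP (y axis) for the 6 tested genes (x axis) with the dye effect removed in full (circles), scaled before removal (squares), not corrected (triangles), and from the Cy5 channel alone (diamonds). Filled symbols have a limma adjusted p below 0.05. Cdh3 and Ctnnb1 stay between -1.08 and -0.65, while Cdh2 moves between -1.67 and -0.42 and Epcam changes sign.

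Counted over the tested genes, 2 of 6 passed in shLoxl2 against shGFP, Cdh1 and Epcam, both higher. Across all probes 13.9% passed in that comparison, 8.08% higher and 5.85% lower. In shSnail against shGFP 2 of 6 passed, Cdh3 and Ctnnb1, both lower, where 21.4% of all probes passed, 8.81% higher and 12.6% lower. Each count stands on few genes beside these backgrounds. The 2 comparisons share the shGFP RNA, so their values are given side by side and their overlap is not used as a result. Over all probes the median log2 fold change was -0.01 in shLoxl2 cells and -0.04 in shSnail cells against the control, and -0.04 between the silencings.

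**Figure D4:**
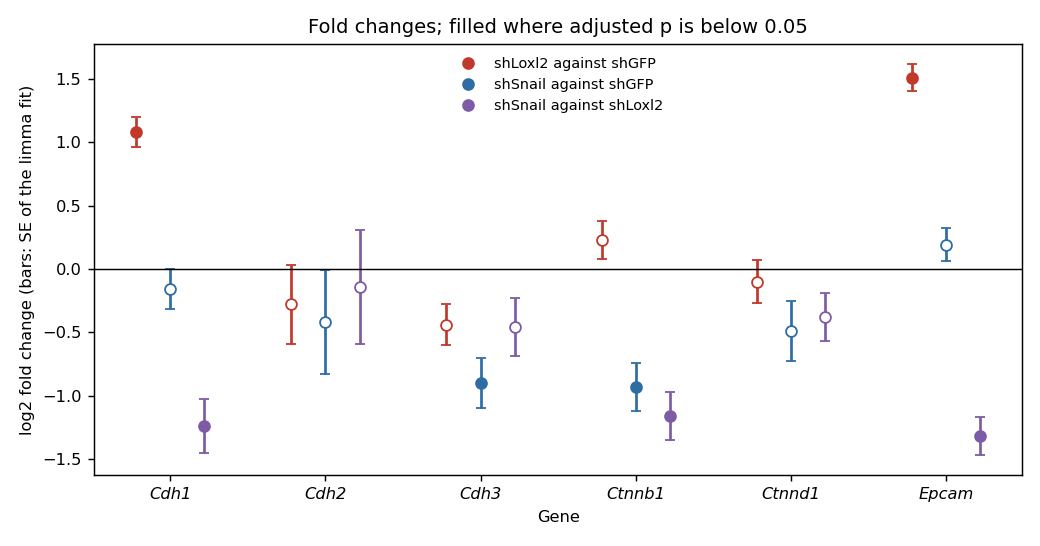
log2 fold change (y axis, bars are the SE of the limma fit) of the 6 tested genes (x axis) in shLoxl2 against shGFP (red), shSnail against shGFP (blue) and shSnail against shLoxl2 (purple), with n = 2 in each silenced group. Filled points have a limma adjusted p below 0.05: Cdh1 and Epcam at 1.08 and 1.51 in red, Cdh3 and Ctnnb1 at -0.9 and -0.93 in blue, and Cdh1, Ctnnb1 and Epcam from -1.32 to -1.16 in purple.

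The difference between the silencings was tested directly on the 4 arrays whose Cy5 channel held silenced RNA, where the dye orientation is shared. No dye term was fitted. The shSnail ratios followed the dye effect at a slope of only 0.453, so a part of it may remain in these differences. In this test 3 of 6 genes passed, all lower in shSnail than in shLoxl2 cells. Of all probes 12.8% passed, 4.24% higher and 8.56% lower. Cdh1 averaged -0.1 in shSnail and 1.14 in shLoxl2 cells relative to shGFP, a log2 difference of -1.24 (SE 0.21, n = 2 each, limma adjusted p = 0.027). Epcam averaged 0.54 in shSnail and 1.85 in shLoxl2 cells, a log2 difference of -1.32 (SE 0.15, n = 2 each, limma adjusted p = 0.0172). Ctnnb1 averaged -0.88 in shSnail and 0.28 in shLoxl2 cells, a log2 difference of -1.16 (SE 0.19, n = 2 each, limma adjusted p = 0.0262). For each of the 3 genes the 2 shSnail arrays lay below both shLoxl2 arrays. For Cdh1 and Epcam the shGFP channel was well above background on 0 of these 4 arrays, and its negative controls differed between the silencings, so their differences are ratios to a background level and their sizes are not fixed. Cdh2 differed by -0.14 (SE 0.45, limma adjusted p = 0.856), Cdh3 by -0.46 (SE 0.23, limma adjusted p = 0.241) and Ctnnd1 by -0.38 (SE 0.19, limma adjusted p = 0.23), and none of these passed.

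These 3 calls were all lost when either shSnail array was left out, with limma adjusted p from 0.107 to 0.17, while the log2 differences stayed between -1.35 and -1.06. The scanner software's log ratios kept Cdh1 (-2.83, limma adjusted p = 0.0346) but not Epcam (-2.45, limma adjusted p = 0.0823) or Ctnnb1 (-1.14, limma adjusted p = 0.0597). In the Cy5 channel alone the differences were -2.29 for Cdh1 (SE 0.17, limma adjusted p = 0.00169), -2.38 for Epcam (SE 0.28, limma adjusted p = 0.00361) and -1.14 for Ctnnb1 (SE 0.32, limma adjusted p = 0.0412). There Cdh2 passed as well, at -1.58 (SE 0.24, limma adjusted p = 0.00666), while in the ratios it changed sign to 0.54 without shSnail replicate 2.

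The rest of the adherens junction was examined with 42 further genes, all of them tested: other cadherins, other catenins, nectins and their partners. Each gene of this list and of the beta-catenin list below stands by its brightest tested probe, while the shares over all probes include dim ones. In shLoxl2 cells 1 was higher and 1 was lower, and the list's median log2 fold change was -0.01. The higher one was Limd1, a LIM protein found at junctions, whose log2 ratio was 0.81 and 1.01 with shLoxl2 RNA in Cy5 and 0.79 and 0.51 with it in Cy3 (log2 fold change 0.78, limma adjusted p = 0.00969). The lower one was Ctnna1, alpha-catenin, which joins the cadherin complex to actin. Its log2 ratio was -0.84 and -0.53 in Cy5 and -1.48 and -0.75 in Cy3, below 0 on all 4 arrays (log2 fold change -0.9, limma adjusted p = 0.0179). The next by p, Pkp4 (-0.42, limma adjusted p = 0.0558), did not pass. The share called was 4.76%, below the 13.9% of all probes. Limd1 and Ctnna1 also passed in shSnail cells, against the same shGFP RNA. Their log2 fold changes there were 0.68 (limma adjusted p = 0.0232) and -0.84 (limma adjusted p = 0.0329). Between the silencings they differed by -0.1 and 0.06 in log2, and neither difference passed.

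In shSnail cells 13 of the 42 passed against shGFP, 6 higher and 7 lower, or 31% beside 21.4% of all probes, with a median of 0.02. With only the 12332 probes well above background in both channels on at least 4 arrays tested, 4093 of them passed, and 13 genes of the list. That is a larger share of all probes than 21.4%, so the list's 31% is not read as an excess. The number of list genes still tested under that filter is not given. Pkp4, an armadillo protein of the p120-catenin family, was lower, with log2 ratios of -1.26 and -1.28 (log2 fold change -1.36, limma adjusted p = 0.00182). Ajuba, a LIM protein that binds alpha-catenin, had ratios of -1.04 and -1.02 (log2 fold change -1.37, limma adjusted p = 0.00207). Ptprf, a receptor tyrosine phosphatase that associates with cadherin complexes, had ratios of -1.1 and -1.01 (log2 fold change -1.29, limma adjusted p = 0.00218). Adam15, a metalloprotease that can cleave E-cadherin, was higher, with ratios of 0.83 and 0.67 (log2 fold change 1.19, limma adjusted p = 0.00365). On the shLoxl2 arrays the Adam15 ratio turned with the dye, at -0.07 and -0.15 with shLoxl2 RNA in Cy5 and 0.91 and 0.63 with it in Cy3. The fold changes of these named genes exceed their array ratios in size because the dye effect was removed in full. The count fell to 4 without shSnail replicate 1, 5 without shSnail replicate 2 and 8 without shLoxl2 replicate 1.

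Against shLoxl2 cells, 6 of the 42 passed in shSnail cells, 2 higher and 4 lower, or 14.3% beside 12.8% of all probes, with a median of -0.04. The 4 with the smallest p were the same genes as against shGFP, which share the shSnail arrays: Ajuba at -1.17 (limma adjusted p = 0.0208), Ptprf at -0.97 (limma adjusted p = 0.0256), Pkp4 at -0.94 (limma adjusted p = 0.0267) and Adam15 at 0.86 (limma adjusted p = 0.0325). Without either shSnail array 0 of the 42 passed limma's threshold, with 8 and 12 at an unadjusted p below 0.05. Without shLoxl2 replicate 1 there were 12, and 10 without replicate 2.

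Beta-catenin's partners and targets formed a list of 31 genes, of which 29 were tested. In shLoxl2 cells 2 were higher and 0 lower, or 6.9% beside 13.9% of all probes, with a median of 0.07. They were Lef1, a DNA-binding partner of beta-catenin (0.67, limma adjusted p = 0.0193), and Ccnd1, the cell-cycle cyclin D1 and a known beta-catenin target (0.47, limma adjusted p = 0.0434). Lef1 had log2 ratios of 0.64 and 0.56 with shLoxl2 RNA in Cy5 and 0.69 and 0.78 with it in Cy3, against shSnail ratios of -0.25 and 0.02. Neither the regulator Zbtb33, also called Kaiso (0.5, limma adjusted p = 0.0713), nor the kinase Gsk3b (0.46, limma adjusted p = 0.103) passed. Without shLoxl2 replicate 1, 0 of the 29 passed, with 6 at an unadjusted p below 0.05.

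In shSnail cells 2 of the 29 passed against shGFP, both lower. Apc, a scaffold of the complex that marks beta-catenin for destruction, was at -0.62 (limma adjusted p = 0.0258) with log2 ratios of -0.7 and -0.48, and Csnk1a1, a kinase that phosphorylates beta-catenin, was at -0.57 (limma adjusted p = 0.0421). Myc (-0.67, limma adjusted p = 0.0568), a target, and the Wnt receptor Lrp6 (-0.62, limma adjusted p = 0.0593) did not pass. The share of 6.9% lay below the 21.4% of all probes, the median was -0.05, and without either shSnail array 0 passed limma's threshold, with 2 and 6 at an unadjusted p below 0.05. Against shLoxl2 cells only Pygo2, a nuclear cofactor of beta-catenin, passed in shSnail cells (-0.69, limma adjusted p = 0.0495), or 3.45% beside 12.8% of all probes, and the list's median was -0.16. Lef1 (-0.72, limma adjusted p = 0.0563), Apc (-0.65, limma adjusted p = 0.0634) and Tcf7l2 (0.66, limma adjusted p = 0.0785) did not. Without either shSnail array this count was 0, with 1 and 5 at an unadjusted p below 0.05, and it was 4 and 3 without shLoxl2 replicate 1 and 2.

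The genes whose ratios ran closest to those of Cdh1 over the 6 arrays, by root mean square difference in log2 ratio among 15789 genes, were Ssh1 (0.139), Slc29a1 (0.144) and Zkscan17 (0.185). Ssh1 encodes a phosphatase that activates the actin-severing protein cofilin, and Slc29a1 a nucleoside transporter. Their log2 fold changes were 1.02, 0.99 and 1.01 in shLoxl2 cells and -0.31, -0.24 and -0.09 in shSnail cells. For Epcam they were Lpin2 (0.115), Stap2 (0.221) and Cep19 (0.229). Lpin2 encodes a phosphatidate phosphatase, Stap2 a signalling adaptor and Cep19 a centrosomal protein, and their log2 fold changes were 1.47, 1.42 and 1.49 in shLoxl2 cells and 0.31, 0.27 and 0.37 in shSnail cells. Being nearest over 6 arrays that share the shGFP RNA is a description and carries no test.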

How the data were processed

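The deposited files hold the spot intensity in both channels of 6 Agilent 2-colour arrays. Per the file headers they came from Agilent's Feature Extraction 9.5.1.1, whereas the submitters' processing notes name 6.1.1. RNA was linearly amplified and labelled with Cy3 or Cy5, per the labels, which also set the direction of each ratio. That software also made log10 ratios, Cy5 over Cy3, per the file headers, and the authors' value table holds them rounded (log10, medians 0.0371 to 0.098 by array, no further centring). Its column for shSnail replicate 2 matched its own array at only 9.37% of spots within 0.006, had the same median as that of replicate 1 (0.0371), and was left out. Results of the value table for shSnail therefore rest on shSnail replicate 1 alone. The design text gives 3 hybridisations per condition, while the labels give 4 and 2.

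From these, limma 3.58.1 (R 4.3.3) corrected background by normexp (offset 50) and normalized by loess within arrays, giving weight 0 to 736 control spots and to outliers. Averaging 21318 probe spots gave 20868 probes, named by RefSeq accession for 14711 and by the files for 6157. A probe was tested if at least 2 arrays had it well above background in 1 or both channels (19752 probes), with lmFit, eBayes and Benjamini-Hochberg adjustment over all of them at 0.05. The code was tested on simulated data. The 7 genes, both lists and the rule for named genes (all members, the silenced genes, up to 4 per list and comparison by smallest p, and the 3 nearest to Cdh1 and to Epcam) were chosen with earlier results of these data known. In all, 1 result under that rule is not reported here. Alternatives covered background, normalization, filters, averaging, dye treatment, samples left out, the replicate block, the value table and the Cy5 channel alone (normexp, quantile between arrays). Slide and scan date could not be fitted as a block, since each slide held 1 array and each scan date 1 silencing.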

Additional observations from a re-analysis of the deposited data

Results flagged for a closer look

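For 3 genes the response to the 2 silencings differed by a test of the difference itself. These calls were all lost when either shSnail array was left out, and the scanner software's log ratios kept only that of Cdh1. The log2 difference, shSnail minus shLoxl2, was -1.24 for Cdh1, -1.32 for Epcam and -1.16 for Ctnnb1, from the 4 arrays whose Cy5 channel held the silenced RNA. Cdh1 and Epcam were higher in shLoxl2 cells and did not pass in shSnail cells, whereas Ctnnb1 was lower in shSnail cells and did not pass in shLoxl2 cells. For Cdh1 and Epcam the shGFP channel was well above background on 0 of these 4 arrays, so the sizes of their differences are not fixed. Scan day and extraction protocol cannot be told apart from the group in these differences.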

How the results depend on the processing

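Few arrays and a bright Cy3 background limit these results. Without shSnail replicate 1 or 2 the probes called in shSnail against shLoxl2 numbered 47 and 39, against 2527 in all. With shLoxl2 replicates left out they numbered up to 4308, and with the Cy5 channel alone 6921 (3454 higher, 3467 lower, against 837 and 1690). Leaving out a replicate gave 1747 to 2806 in shLoxl2 (2751 in all) and 1585 to 3159 in shSnail (4226 in all; 2929 higher and 2702 lower in Cy5 alone, 1014 and 3173 by scanner software, against 1741 and 2485). The scanner software called 776 in shLoxl2, and shifted the median of all probes to -0.277 in shSnail and -0.278 in shSnail against shLoxl2 (424 higher and 1928 lower there). The value table called 0 in each comparison by limma, with 3476, 5608 and 3863 at an unadjusted p below 0.05, and 0 of the 7 genes and of either list, with 2 to 18 unadjusted. Of the 7 genes, the strict filter (both channels, 4 arrays) called 0 in shLoxl2 (1 unadjusted) and 1 in shSnail against shLoxl2, leaving out Cdh1, Ctnnd1 and Epcam. The scanner software called 0 (4 unadjusted) in shSnail and 1 in shSnail against shLoxl2, no dye correction 4 in shSnail, and Cy5 alone 1. Leave-one-out gave 2 in shLoxl2, 1 in shSnail, and 0 to 3 in shSnail against shLoxl2 (3 and 4 unadjusted at 0).

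Signs turned for Ctnnb1 in shLoxl2 without replicate 2 (-0.01, and 0.47 without replicate 1), Ctnnd1 in shLoxl2 without replicate 1 (0.18, and -0.39 without replicate 2), by scanner software (0.36) and in the value table (0.36). They turned in shSnail for Cdh1 in Cy5 alone (0.27), for Cdh2 without shSnail replicate 2 (0.25, and -1.1 without replicate 1), and for Epcam in the value table (-0.02) and Cy5 alone (-0.34). In shSnail against shLoxl2 Cdh2 turned without shSnail replicate 2 (0.54, and -0.82 without replicate 1). The adherens junction list in shLoxl2 gave 5 without background subtraction, 0 by scanner software (7 unadjusted), 4 under the strict filter, 6 unaveraged, 6 in Cy5 alone, and 1 to 2 with a replicate left out. In shSnail it gave 8 unaveraged and 4 to 9 with a replicate left out, and in shSnail against shLoxl2 3 by scanner software, 15 in Cy5 alone and 0 to 12. The beta-catenin list in shLoxl2 gave 0 by scanner software (6 unadjusted), 1 with shLoxl2 arrays alone and 0 to 3 with a replicate left out. In shSnail it gave 5 without background subtraction, 5 under the strict filter, 0 by probe means (9 unadjusted), 1 unaveraged, 8 without dye correction, 6 with the dye scaled, 4 in Cy5 alone and 0 to 2 with a replicate left out. In shSnail against shLoxl2 it gave 2 without background subtraction, 3 by scanner software, 0 with no filter (7 unadjusted), 3 under the strict filter, 8 in Cy5 alone and 0 to 4 with a replicate left out. With the replicate number as a block, shSnail against shLoxl2 had 2720 calls, 3 of the 7 genes, 7 adherens genes and 0 beta-catenin genes (11 unadjusted). Same-numbered samples deviated together at a correlation of 0.208 over 2 pairs, and the labels tie them by number only. Alternatives not named gave counts within 1.5 times, or kept direction and side of the threshold, except calls of single genes given above. The causes were not tested.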
